A study of Mus musculus with 35 samples.

Results

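The comparison described here sets young mouse liver taken 48 h after partial hepatectomy (PH) against young liver taken 48 h after sham surgery. Its members are 5 of the 35 arrays of the series, 3 of PH livers and 2 of sham livers, chosen by their labels alone, with every probe set that the platform table pairs with exactly 1 gene symbol. All mice were male CB6F1 hybrids. The young ones were 5 to 6 months old and came from Jackson Laboratories. PH took out 70% of the liver under avertin and isoflurane, and the sham animals had the surgery without the resection. The livers carried no transgene or deletion in the labels. Side values come from young livers 24 h after PH (3 arrays) and after sham surgery (2 arrays), from untreated young livers at 0 h (3 arrays), and from livers of old mice of 25 to 27 months, obtained from the National Institute on Aging, 48 h after PH (3 arrays) and after sham surgery (2 arrays). Age and supplier cannot be told apart in the old livers. The labels do not say that each array is a separate animal, so the spread behind the p-values may be technical.

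After PH the remaining liver restores its mass mainly through division of hepatocytes, which are quiescent in the intact organ. Cells copy their DNA in S phase, when helicase, polymerase and clamp genes are active, and then pass into mitosis, when a separate group of genes is switched on for chromosome condensation, spindle assembly, segregation and cytokinesis. Transcription of these groups is held back in quiescence by the DREAM complex and the retinoblastoma family and driven in dividing cells by E2F, MYB and FOXM1 factors. The same cells also make the plasma proteins, bile acids, glucose and urea for which the liver is known.

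Values are log2 signals made by the authors with RMA, which removes background, makes the arrays alike in distribution and combines probes into probe sets, on an Affymetrix mouse whole-genome array. An increase of 1 on this scale is a doubling of signal. Differences are PH minus sham on the log2 scale, ± the standard error (SE) of a limma fit with n = 3 PH and 2 sham arrays, and the spread is pooled over the 14 groups of all 35 arrays. "Rose" and "fell" mark an adjusted p under 0.05 (Benjamini-Hochberg over 18193 genes). A level cannot be compared between genes, because probe sets differ in brightness.

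At 48 h, 3340 of the 18193 genes (18.4%) differed between PH and sham livers. Of these, 2012 rose (11.1%) and 1328 fell (7.3%). With quantile normalization repeated on the arrays, 1537 rose and 1794 fell, so that the share of rises among the calls was 46.1% in place of 60.2%; it was 51.9% with the mean of all probe sets of a gene. A change of at least 2-fold was seen in 508 genes that rose (2.79%) and in 111 that fell (0.61%). At the upper end, 49 genes rose by at least 8-fold, and 33 of these belong to 13 lists of cell cycle genes that hold 361 measured genes. Of the 111 genes that fell by at least 2-fold, 0 are in those lists. The lists hold only 361 of the 18193 genes tested, so few would be there in any case. At any size of change, 240 of the 361 rose and 5 fell. The PH arrays lay wholly above the sham arrays for 25% of all genes and wholly below for 31%, whether or not the gene passed the test. Among the 3340 genes called, 3332 had arrays that did not overlap, so a lack of overlap adds little to a call.

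The PH arrays were not alike in size of response. PH replicate 1 differed by over 2-fold from the sham arrays in 1220 and 1130 genes, PH replicate 2 in 591 and 485, and PH replicate 3 in 828 and 729, while the 2 sham arrays differed so in 34. Among the 2012 genes that rose, PH replicate 1 was the farthest from sham in 1251, and among the 1328 that fell, in 648. Correlation across genes was 0.991 to 0.994 between PH arrays, 0.996 between the sham arrays, and 0.960 to 0.979 between PH and sham arrays. Leaving out an array raises the error of each difference, most so for 1 of the 2 sham arrays. Calls near the threshold can then be lost whichever array it is. The number of calls fell with each array left out. It was 1297 without sham replicate 1, 1819 without sham replicate 2, 1985 without PH replicate 1, 3274 without PH replicate 2 and 2694 without PH replicate 3.

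The largest rise was that of Birc5, which encodes survivin, a subunit of the chromosomal passenger complex that corrects chromosome attachment and guides cytokinesis. Its signal was 11.72, 11.55 and 11.79 in the PH livers, against 6.37 and 6.30 in the sham livers. The difference of 5.35 ± 0.73 (adjusted p = 1.45e-05) is a 40.8-fold rise on the linear scale. Ube2c, the conjugating enzyme that loads ubiquitin onto substrates of the anaphase-promoting complex, read 11.80, 11.35 and 12.27 in the PH livers, against 6.98 and 6.98 in the sham livers (4.83 ± 0.63, adjusted p = 8.83e-06). Mki67, whose product coats mitotic chromosomes and serves as a proliferation marker, read 11.36, 11.34 and 11.49 in the PH livers, against 6.91 and 6.69 in the sham livers (4.59 ± 0.66, adjusted p = 2.84e-05). In all 3 genes every PH array stood far above both sham arrays.

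Cdk1, the kinase that drives entry into mitosis, read 12.14, 12.11 and 12.57 in the PH livers, against 8.24 and 7.96 in the sham livers (log2 difference 4.17 ± 0.50, 18.0-fold, adjusted p = 2.81e-06). Its partner Ccnb2, a B-type cyclin, read 11.48, 11.18 and 11.29 in the PH livers, against 7.12 and 6.73 in the sham livers (4.39 ± 0.51, adjusted p = 1.65e-06). The other genes among the 12 largest rises were D17H6S56E-5 (5.10 ± 0.61), Ect2 (4.58 ± 0.48), Cdca8 (4.57 ± 0.47), Esco2 (4.51 ± 0.59), Cdca3 (4.33 ± 0.53), Nuf2 (4.17 ± 0.44) and Kif20a (4.15 ± 0.46). Ect2 activates RhoA for the cleavage furrow, Cdca8 is borealin of the passenger complex, and Esco2 acetylates cohesin so that sister chromatids hold together. Cdca3 is a trigger of mitotic entry, Nuf2 a kinetochore subunit, and Kif20a a kinesin of the midzone. Only genes whose PH and sham arrays do not overlap could enter these 12, and the 0 h livers lay beside the sham livers.

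**Figure D1:**
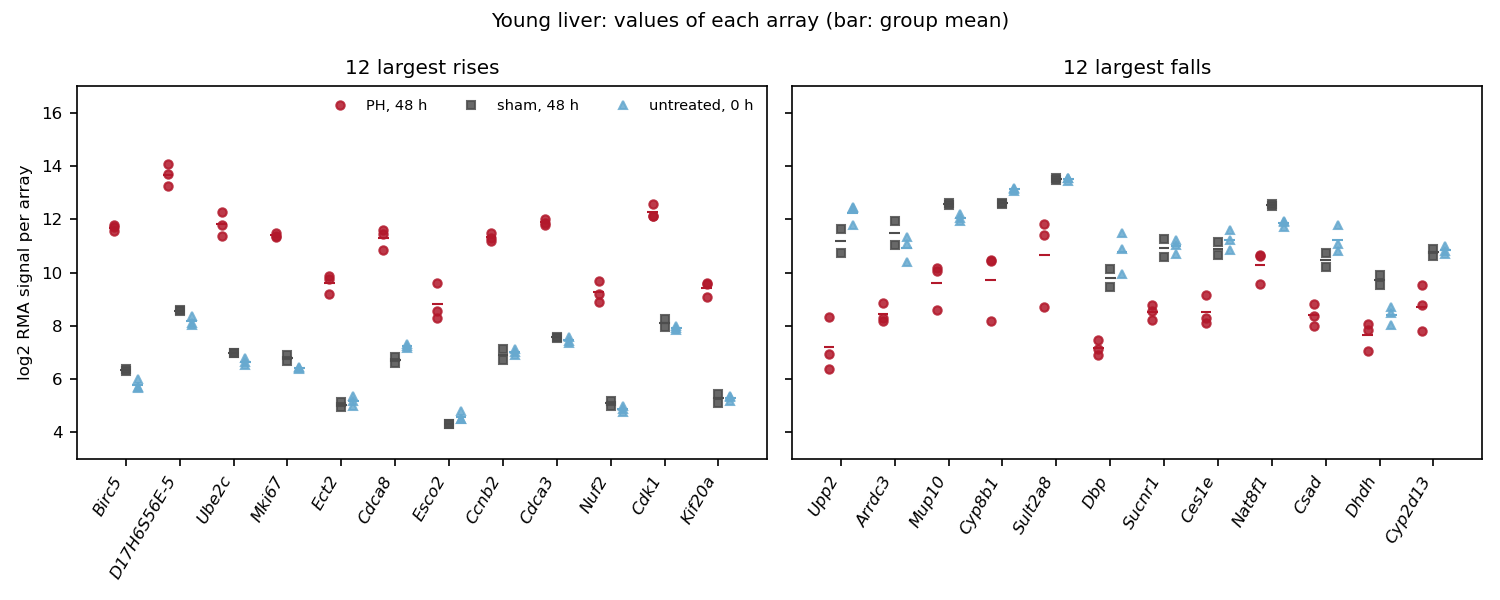
Log2 RMA signal of each young array for the 12 genes with the largest rises (left panel) and the 12 with the largest falls (right panel), with PH livers at 48 h as circles, sham livers at 48 h as squares, untreated livers at 0 h as triangles, and a bar at each group mean. The PH arrays of Birc5 lie between 11.55 and 11.79 and its sham arrays at 6.37 and 6.30, while among the falls the PH arrays of Sult2a8 spread from 8.69 to 11.82.

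Promoters of mitotic genes carry a short element, the cell cycle genes homology region, and CCAAT boxes bound by NF-Y in many mammalian genes. The sequences below are shown because these genes moved most or hold the motifs. The 100 bases before the annotated start were searched on both strands for TTTGAA or TTCGAA and for CCAAT, in RefSeq promoters of build GRCm38.p6. Of the 131 members of 6 mitotic lists (kinetochore, checkpoint, kinases, condensin, cytokinesis and centrosome) with a promoter in the table, 16.0% held the homology element, 42.0% a CCAAT box and 9.16% both. Among all 14452 tested genes with a promoter the shares were 5.11%, 24.2% and 1.20%. In the replication list 4.88% of 41 promoters held the element and 48.8% a CCAAT box, and in the coagulation and complement list the shares were 13.3% and 13.3% of 30. A match is a description of letters and not a measured binding site. Capitals below mark the matches, as written or reverse complemented, and each line reads 5′ to 3′ toward the gene's start.
Ube2c, GRCm38.p6 chr2:164769829-164769928, plus strand: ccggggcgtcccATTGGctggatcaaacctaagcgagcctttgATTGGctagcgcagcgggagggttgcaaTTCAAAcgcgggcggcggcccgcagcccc
Cdk1, GRCm38.p6 chr10:69352913-69353012, minus strand: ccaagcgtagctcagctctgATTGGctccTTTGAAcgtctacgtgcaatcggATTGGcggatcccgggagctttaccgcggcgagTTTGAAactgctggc
Cdc20, GRCm38.p6 chr4:118437344-118437443, minus strand: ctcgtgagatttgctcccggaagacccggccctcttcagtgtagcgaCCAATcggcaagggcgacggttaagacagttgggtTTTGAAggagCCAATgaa
Cenpw, GRCm38.p6 chr10:30200541-30200640, minus strand: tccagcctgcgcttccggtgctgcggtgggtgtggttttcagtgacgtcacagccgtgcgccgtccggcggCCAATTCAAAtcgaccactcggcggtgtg
Cdca8, GRCm38.p6 chr4:124936918-124937017, minus strand: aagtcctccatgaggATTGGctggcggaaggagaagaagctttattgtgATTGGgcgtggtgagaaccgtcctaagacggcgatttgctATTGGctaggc
Birc5, GRCm38.p6 chr11:117849137-117849236, plus strand: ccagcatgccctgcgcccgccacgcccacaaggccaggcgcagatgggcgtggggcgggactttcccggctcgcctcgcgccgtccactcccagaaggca
Ube2c holds 2 CCAAT boxes, both reverse complemented, and the homology element begins 29 bases before its start. Cdk1 has 2 copies of the element, and Cdc20 has 1 between its CCAAT boxes. In Cenpw the CCAAT box and the element share a letter. Cdca8 has 3 CCAAT boxes without the element, and Birc5, which rose most, has neither in this window.

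Most genes that attach chromosomes to the spindle rose. In the list of kinetochore and centromere genes, 24 of 30 measured members rose and 0 fell, with a median log2 difference of 1.46, where the median over all genes was -0.05. Cenpa, the histone variant that marks the centromere, read 11.35, 10.98 and 11.20 in the PH livers, against 7.23 and 7.13 in the sham livers (4.0 ± 0.46, adjusted p = 1.76e-06). Beside it rose Cenpw (3.53 ± 0.37), Spc25 (3.27 ± 0.47), Cenpf (3.15 ± 0.40) and Spc24 (2.35 ± 0.43), of which Spc24 and Spc25 belong with Nuf2 to the complex that grips microtubules. Every PH array of these genes was above every sham array, as in nearly all genes that rose.

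Among spindle checkpoint and anaphase-promoting complex genes, 20 of 26 measured members rose and 0 fell (median 0.77). Cdc20, the activator of that complex, read 12.25, 11.65 and 12.28 in the PH livers, against 8.03 and 7.98 in the sham livers (4.06 ± 0.45, adjusted p = 9.81e-07). The checkpoint genes Mad2l1 (3.40 ± 0.33), Bub1 (3.10 ± 0.32) and Ttk (2.95 ± 0.30) rose, as did Ube2s (2.54 ± 0.27), which extends ubiquitin chains on its targets. Of the mitotic kinases and phosphatases, 22 of 26 measured members rose and 0 fell (median 1.58). Aurka, a kinase of the spindle poles, read 10.81, 10.41 and 11.16 in the PH livers, against 7.07 and 6.92 in the sham livers (3.80 ± 0.42). Plk1, which acts from mitotic entry to cytokinesis, read 10.62, 10.01 and 10.84 in the PH livers, against 7.11 and 6.99 in the sham livers (3.44 ± 0.42), and Pbk stood at 3.90 ± 0.48. Wee1, the kinase that restrains Cdk1, read 9.75, 9.75 and 10.24 in the PH livers, against 9.15 and 9.05 in the sham livers and did not pass (0.82 ± 0.40, adjusted p = 0.161).

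Condensin and cohesin compact chromosomes and hold sister chromatids together. In that list 13 of 20 measured members rose and 0 fell (median 0.68). Smc2, an ATPase of condensin, read 10.30, 9.87 and 10.45 in the PH livers, against 6.27 and 6.36 in the sham livers (3.89 ± 0.52, adjusted p = 1.09e-05). The condensin genes Smc4 (3.17 ± 0.39), Ncapd2 (2.72 ± 0.36) and Ncapg2 (2.47 ± 0.39) and Cdca5 (2.48 ± 0.38), which encodes sororin, a stabiliser of cohesin, rose with it. In the cytokinesis list 19 of 26 measured members rose and 0 fell (median 1.03), among them Cep55 (3.87 ± 0.42), Anln (3.77 ± 0.42), Kif20b (2.77 ± 0.39) and Prc1 (2.63 ± 0.35). Anln encodes the furrow scaffold anillin, Cep55 recruits the abscission machinery, and Prc1 bundles microtubules of the midzone. In the centrosome list 16 of 28 measured members rose and 0 fell (median 0.63), with Ckap2 (3.29 ± 0.39), Aspm (1.95 ± 0.31) and Ckap2l (1.79 ± 0.27) and the augmin subunits Haus6 (1.88 ± 0.25), Haus3 (1.69 ± 0.21) and Haus1 (1.60 ± 0.20) as the members that moved most. The centrosome members that rose numbered 11 without sham replicate 1.

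Tubulins are the subunits of microtubules, and 7 of 12 measured members rose and 0 fell (median 0.89). Tubb6, a beta tubulin, read 12.85, 12.19 and 12.52 in the PH livers, against 8.82 and 8.31 in the sham livers (3.95 ± 0.44, 15.5-fold, adjusted p = 1.10e-06). The other members that rose were Tubb4b (2.10 ± 0.23), Tubb5 (1.93 ± 0.22), Tubb2a (1.19 ± 0.27), Tuba8 (1.11 ± 0.21), Tubd1 (0.96 ± 0.19) and Tuba1a (0.83 ± 0.25). With 1 array left out the call was lost by Tuba1a (0.65 to 1.03) without sham replicate 1 or 2 or PH replicate 1 or 3. The remaining 5, Tubb2b (0.62 ± 0.30), Tuba4a (-0.12 ± 0.13), Tubb3 (-0.13 ± 0.09), Tubb4a (-0.26 ± 0.12) and Tube1 (-0.28 ± 0.14), did not pass, and tubulin genes are alike enough in sequence for a probe set to read more than its own gene.

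**Figure D2:**
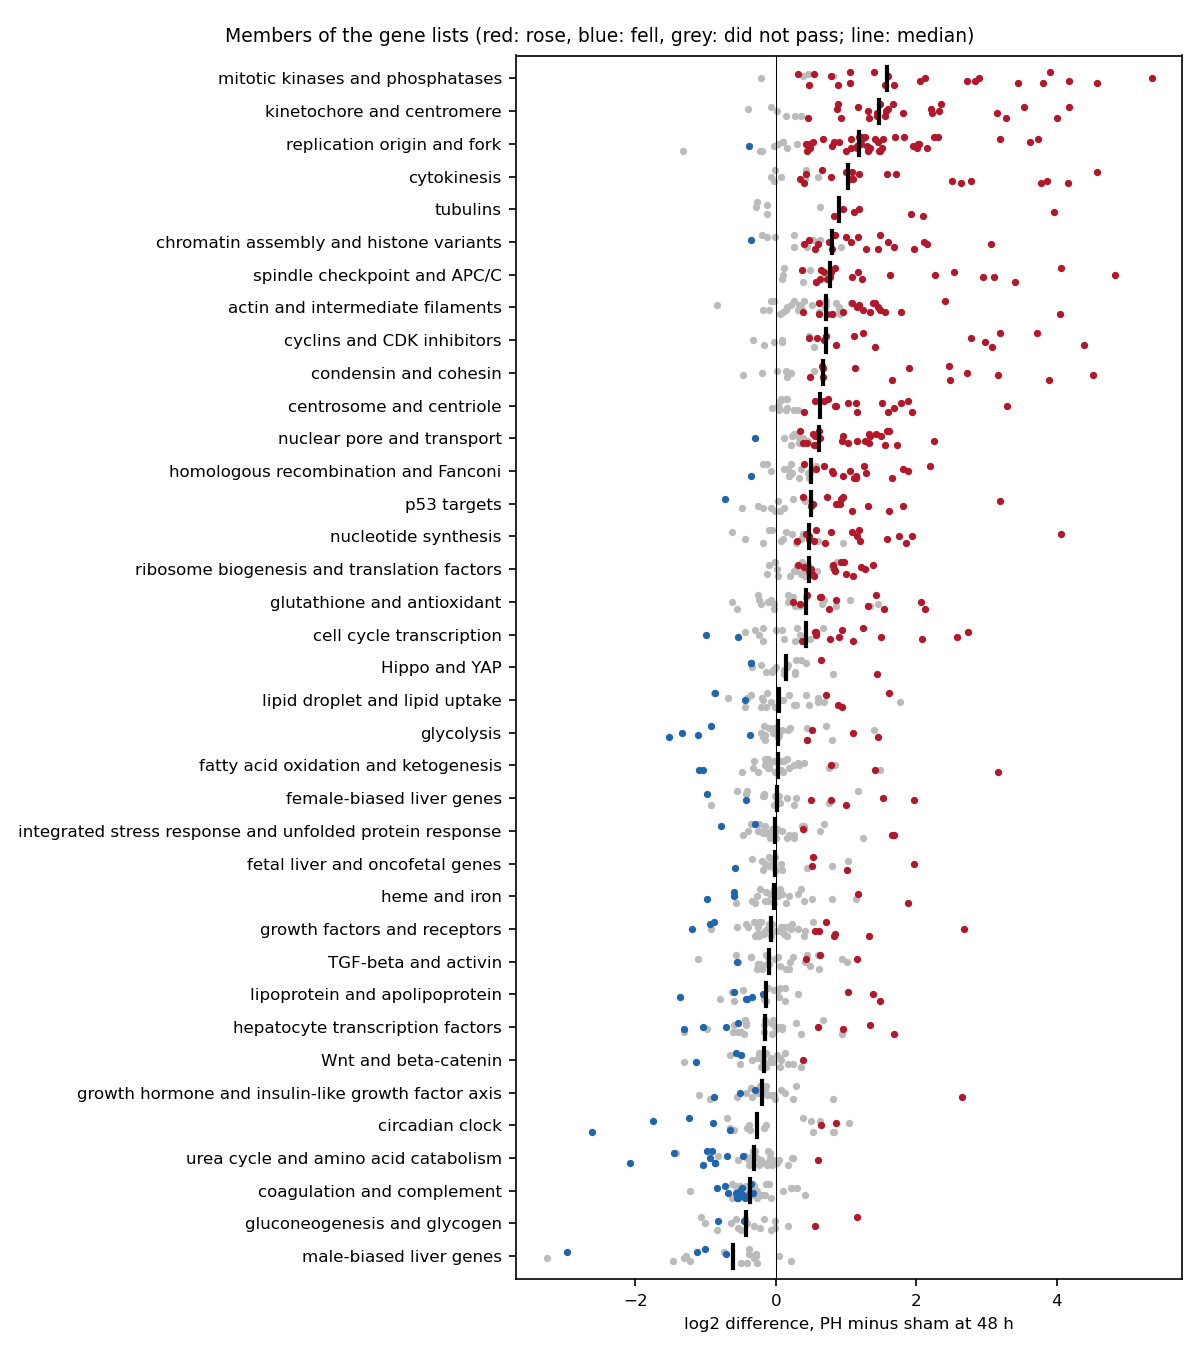
Each point is a gene, placed by its log2 difference between PH and sham livers at 48 h (horizontal axis) in the row of its list, with red for genes that rose, blue for genes that fell, grey for genes that did not pass and a black line at the list's median. Lists of mitosis and replication lie at the top, with medians of 1.58 for mitotic kinases and 1.19 for replication, and male-biased liver genes at the bottom with -0.60.

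Cyclins activate the cell cycle kinases and CDK inhibitors hold them back, and members of both kinds were higher in PH livers. In this list 14 of 21 measured members rose and 0 fell (median 0.71). Ccnd1, the cyclin D1 gene that links growth signals to the cycle, read 12.15, 12.21 and 11.84 in the PH livers, against 9.05 and 9.12 in the sham livers (2.98 ± 0.54, adjusted p = 3.62e-04). Ccna2, cyclin A of S phase and early mitosis, read 10.88, 10.72 and 10.80 in the PH livers, against 7.79 and 7.66 in the sham livers (3.08 ± 0.40). Ccne2, an E-type cyclin of S phase entry, stood at 1.24 ± 0.39, Ccnf at 1.41 ± 0.24, Ccng1, a p53 target, at 0.86 ± 0.19 and Ccnd3 at 0.47 ± 0.14. Ccne1 (0.48 ± 0.22), Ccng2 (-0.03 ± 0.32) and Ccnd2 (-0.32 ± 0.17) did not pass. Against 0 h livers Ccne1 passed by limma (1.32 ± 0.20, adjusted p = 2.59e-05) and Ccne2 did not (0.88 ± 0.35, adjusted p = 0.0646).

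The inhibitor gene Cdkn1a, which encodes p21, read 11.94, 11.87 and 11.76 in the PH livers, against 8.80 and 8.53 in the sham livers, a rise of 3.19 ± 0.46 (adjusted p = 2.44e-05). It read 9.87, 10.19 and 9.66 in the 0 h livers, above the sham level, and the difference from 0 h was 1.95 ± 0.41 (adjusted p = 8.30e-04). Cdkn3, a phosphatase that acts on CDKs, rose by 3.71 ± 0.34. The INK4 inhibitors Cdkn2c and Cdkn2d rose by 2.77 ± 0.42 and 1.11 ± 0.28, whereas Cdkn2a (0.09 ± 0.13) and Cdkn2b (0.09 ± 0.16) of the same family did not pass. Cdkn1b, encoding p27, was at 0.55 ± 0.25 (adjusted p = 0.134) and Cdkn1c at -0.17 ± 0.16. The kinases Cdk2 (0.69 ± 0.16), Cdk4 (0.58 ± 0.10) and Cdk6 (0.71 ± 0.18) rose by smaller amounts than Cdk1. With an array left out, the call of Cdk2 (0.63 to 0.80) was lost without sham replicate 1. Ccnd3 (0.36 to 0.58) lost its call without sham replicate 1 or PH replicate 2. Cdkn2d (0.93 to 1.22) lost it without sham replicate 1 or 2, and Cdk6 (0.58 to 0.81) without sham replicate 2. Ccne2 (1.11 to 1.37) lost it without sham replicate 1 or 2 or PH replicate 1 or 3. In parentheses is the range of the log2 difference over the 5 arrays left out in turn.

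Most genes of DNA replication rose beside the mitotic ones. In the list of origin and fork genes, 40 of 51 measured members rose and 1 fell (median 1.19). Mcm5, a subunit of the replicative helicase, read 10.80, 10.56 and 11.04 in the PH livers, against 7.14 and 7.23 in the sham livers (3.61 ± 0.62, adjusted p = 1.97e-04). The helicase subunits Mcm6 (3.19 ± 0.58), Mcm7 (2.30 ± 0.38) and Mcm2 (2.15 ± 0.29), the clamp loader subunit Rfc4 (2.26 ± 0.30) and the clamp Pcna (1.83 ± 0.26) rose with it. Dbf4, which activates the kinase that fires origins, had the largest difference of the list and read 10.79, 10.13 and 10.55 in the PH livers, against 6.66 and 6.86 in the sham livers (3.73 ± 0.35, adjusted p = 1.98e-07). Top2a, the topoisomerase that untangles replicated chromosomes, rose by 3.41 ± 0.57.

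Nucleotide synthesis supplies these forks, and 17 of 31 measured members rose and 0 fell (median 0.48). In this list 11 rose and 0 fell without sham replicate 1. Rrm2, the regulated subunit of ribonucleotide reductase, read 11.25, 10.97 and 11.44 in the PH livers, against 7.25 and 7.07 in the sham livers (4.06 ± 0.60, adjusted p = 3.51e-05). Its partner Rrm1 (1.94 ± 0.31) and the deoxynucleotide enzymes Dck (1.86 ± 0.44), Dut (1.75 ± 0.29) and Dtymk (1.58 ± 0.21) rose by less. For homologous recombination and Fanconi genes, which mend broken or stalled forks, 16 of 33 measured members rose and 1 fell (median 0.51), among them Rad51ap1 (2.20 ± 0.40), Topbp1 (1.88 ± 0.29), Brca1 (1.80 ± 0.34), Chek1 (1.66 ± 0.32), Eme1 (1.28 ± 0.17) and Fancb (1.25 ± 0.23). For chromatin assembly, 19 of 29 measured members rose and 1 fell (median 0.80). Hmgb2, a chromatin protein of dividing cells, read 10.11, 9.63 and 10.52 in the PH livers, against 7.17 and 6.87 in the sham livers (3.07 ± 0.40, adjusted p = 7.90e-06), and H2ax (2.16 ± 0.33), H2az1 (2.11 ± 0.31), Hat1 (1.96 ± 0.26), Ezh2 (1.68 ± 0.30) and Hmgb3 (1.59 ± 0.29) rose, of which Ezh2 is the methyltransferase of the Polycomb repressive complex.

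In the list of cell cycle transcription genes, 13 of 28 measured members rose and 2 fell (median 0.43). Of these members 8 rose and 0 fell without sham replicate 1, and 9 and 0 without sham replicate 2. Mybl1, a MYB factor, read 7.87, 6.15 and 7.33 in the PH livers, against 4.34 and 4.40 in the sham livers (2.74 ± 0.38, adjusted p = 1.50e-05), and Rbl1, the p107 member of the retinoblastoma family, read 8.89, 8.31 and 9.01 in the PH livers, against 6.08 and 6.25 in the sham livers (2.57 ± 0.45, adjusted p = 2.32e-04). Rbl2, the p130 member found in the quiescent DREAM complex, fell: it read 7.62, 8.15 and 7.67 in the PH livers, against 8.76 and 8.86 in the sham livers (-0.99 ± 0.26, adjusted p = 0.00798). Rb1 itself was at 0.12 ± 0.13 and did not pass. The relatives Rbl1 and Rbl2 thus moved in opposite directions, with no overlap between PH and sham arrays in either, as in nearly all genes called.

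Of the E2F factors, the activators E2f1 (0.90 ± 0.17), E2f2 (0.58 ± 0.19) and E2f3 (0.57 ± 0.16) and the repressors E2f6 (0.37 ± 0.11) and E2f8 (1.5 ± 0.49) rose, while E2f4 (0.09 ± 0.18), E2f5 (-0.19 ± 0.19) and E2f7 (0.49 ± 0.21) did not pass. The DREAM subunits Lin54 (1.25 ± 0.26), Lin9 (1.10 ± 0.18) and Lin37 (0.56 ± 0.10) rose and Lin52 (-0.30 ± 0.15) did not pass. Dnajc9, a histone chaperone, rose by 2.08 ± 0.32, the E2F partner Tfdp1 by 0.94 ± 0.12 and the MAX partner Mxd3 by 0.77 ± 0.17, while Mxd4 (-0.54 ± 0.15), which opposes MYC, fell. Neither Tfdp2 (0.30 ± 0.20) nor Cenpu (0.27 ± 0.14) passed. Myc read 8.65, 7.92 and 8.11 in the PH livers, against 7.64 and 7.48 in the sham livers (0.67 ± 0.35, adjusted p = 0.191), and Mycn (-0.17 ± 0.11), Mxi1 (-0.24 ± 0.13), Tfap4 (-0.44 ± 0.17) and Mybl2 (0.00 ± 0.11) did not pass either. Calls lost with an array left out were E2f3 (0.54 to 0.61) and E2f6 (0.31 to 0.43) without sham replicate 1 or 2 or PH replicate 1; E2f8 (1.31 to 1.69) and Mxd4 (-0.66 to -0.48) without sham replicate 1 or 2 or PH replicate 1 or 3; Mxd3 (0.68 to 0.86) without sham replicate 1; Rbl2 (-1.16 to -0.90) without sham replicate 1 or 2; E2f2 (0.51 to 0.65) without sham replicate 1 or 2 or PH replicate 1, 2 or 3.

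The 48 h response was also set against the 24 h response of young livers, and these 2 differences share no array. The difference between the responses passed in 127 genes (0.698%), 116 with a higher (0.638%) and 11 with a lower response at 48 h (0.0605%). Of 361 cell cycle genes, 49 were among the higher ones. The kinetochore list had 10 of 30 members with a higher response at 48 h, the cytokinesis list 10 of 26, the kinase list 9 of 26 and the checkpoint list 7 of 26. The replication list had 2 of 51 and the nucleotide list 0 of 31. The lists were not tested against each other, and the median difference between the times was 0.34 in the replication list.

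Ccnb2 had the largest such difference, with responses of 4.39 ± 0.51 at 48 h and 0.49 ± 0.51 at 24 h (difference 3.90 ± 0.72, adjusted p = 0.00651). Cdca3 followed with 4.33 ± 0.53 at 48 h and 0.55 ± 0.53 at 24 h (difference 3.77 ± 0.75). By contrast Rrm2 was at 4.06 ± 0.60 at 48 h and 3.31 ± 0.60 at 24 h, Mcm5 at 3.61 ± 0.62 and 2.56 ± 0.62, and Pcna at 1.83 ± 0.26 and 1.35 ± 0.26, and these differences did not pass (adjusted p = 0.852, 0.766 and 0.744). Dbf4, with 3.73 ± 0.35 at 48 h and 0.83 ± 0.35 at 24 h, was 1 of the 2 replication genes that did (adjusted p = 0.00473). Median responses were 1.58 at 48 h and 0.32 at 24 h for the kinase list and 1.19 and 0.48 for the replication list.

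A smaller group stood lower at 48 h than at 24 h. Sbk1, a kinase gene, was at -0.91 ± 0.36 at 48 h and 1.24 ± 0.36 at 24 h (difference -2.15 ± 0.51, adjusted p = 0.0461). Adcy9, an adenylate cyclase, was at -1.18 ± 0.16 and -0.17 ± 0.16, and Jmy, an actin nucleator and p53 cofactor, at -1.08 ± 0.17 and 0.01 ± 0.17. Cdo1, the dioxygenase that breaks down cysteine, was at -0.97 ± 0.11 at 48 h and -0.15 ± 0.11 at 24 h (difference -0.83 ± 0.16, adjusted p = 0.00849). The count of 127 changed with an array left out. It was 26 without sham replicate 1 at 48 h, 57 without sham replicate 2, 76 without PH replicate 1 and 231 without PH replicate 2, and 48 or 44 without 1 of the 24 h sham arrays. Genes with a lower response at 48 h numbered 0 without sham replicate 1 at 48 h, and 0 without replicate 2 of the 24 h sham livers.

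**Figure D3:**
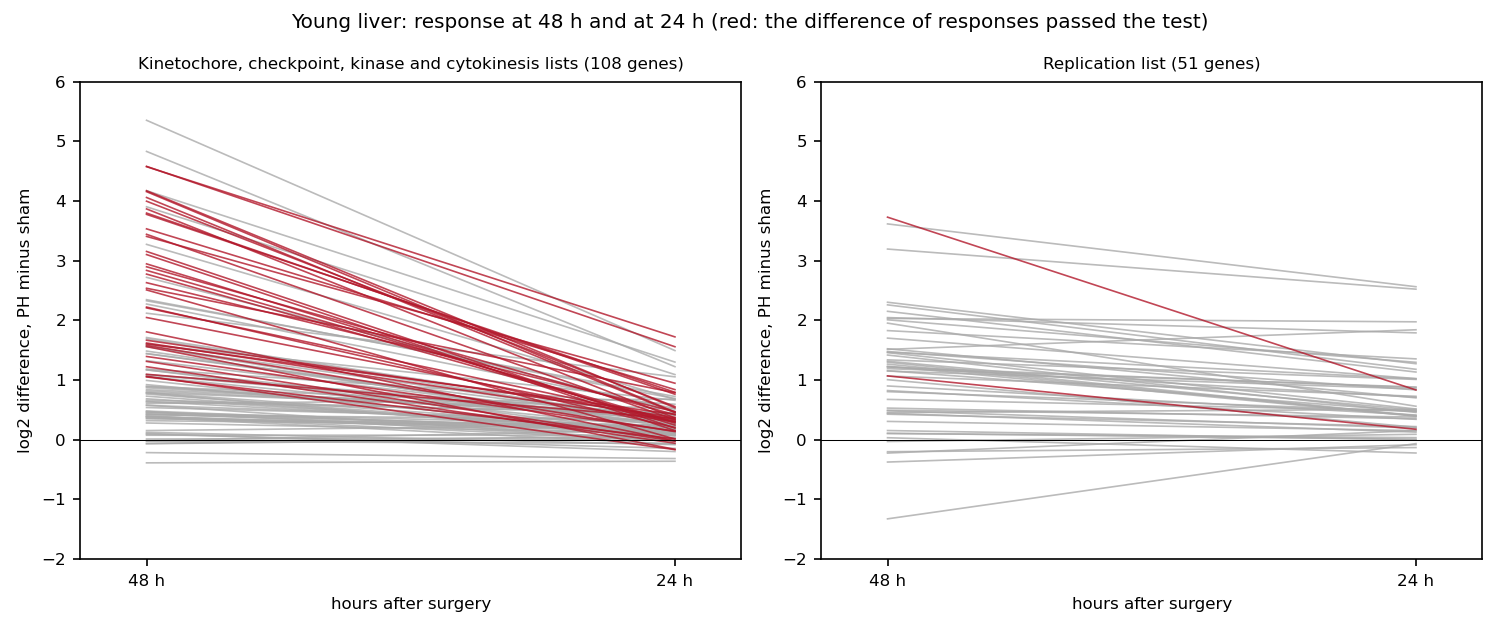
Log2 difference between PH and sham in young livers at 48 h (left end of each line) and 24 h (right end), for 108 genes of the kinetochore, checkpoint, kinase and cytokinesis lists (left panel) and 51 genes of the replication list (right panel), with red lines where the difference between the responses passed the test. In the left panel 36 lines are red, and in the right panel 2.

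Most genes for nuclear transport rose beside the cell cycle, and so did a part of those for ribosome production and the cytoskeleton. Among nuclear pore and transport genes, 24 of 33 measured members rose and 1 fell (median 0.62). Kpna2, an importin alpha, read 13.02, 12.61 and 13.21 in the PH livers, against 10.57 and 10.82 in the sham livers (2.25 ± 0.25, adjusted p = 9.49e-07). The pore genes Aaas (1.73 ± 0.24), Nup205 (1.61 ± 0.19) and Ndc1 (1.58 ± 0.17) rose too. So did Rangap1, the GTPase-activating protein of Ran (1.55 ± 0.15), and the exportin Xpo1 (1.49 ± 0.16). For ribosome biogenesis and translation factors, 16 of 36 measured members rose and 0 fell (median 0.47, and 0.12 against 0 h livers). Nhp2 of the pseudouridylating ribonucleoprotein read 11.31, 11.14 and 10.99 in the PH livers, against 9.76 and 9.78 in the sham livers (1.38 ± 0.29), and Eif4e (1.27 ± 0.19), Nop58 (1.22 ± 0.29), Wdr12 (1.09 ± 0.20), Gar1 (1.00 ± 0.25) and Nolc1 (0.96 ± 0.18) rose. In the ribosome list 7 rose and 0 fell without sham replicate 1. The call was lost in Gar1 (0.82 to 1.18) and Nop58 (0.84 to 1.60) without sham replicate 1.

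In the list of actin and intermediate filament genes, 19 of 45 measured members rose and 0 fell (median 0.71). Stmn1, which encodes the microtubule destabiliser stathmin, read 13.64, 13.44 and 13.54 in the PH livers, against 9.49 and 9.49 in the sham livers (4.05 ± 0.61, 16.6-fold, adjusted p = 4.63e-05). The membrane-binding annexin Anxa2 read 13.49, 11.43 and 11.51 in the PH livers, against 9.99 and 9.46 in the sham livers (2.41 ± 0.69, adjusted p = 0.0158), with PH replicate 1 the highest. The tropomyosin Tpm4 (1.79 ± 0.25), Anxa5 (1.55 ± 0.34), Tagln2 (1.49 ± 0.34) and the thymosin Tmsb10 (1.46 ± 0.46) rose with them. The call was lost in Anxa2 (1.74 to 2.77) without sham replicate 1 or 2 or PH replicate 1; Tmsb10 (1.23 to 1.71) without sham replicate 1 or 2 or PH replicate 1 or 3. In this list 11 rose and 0 fell without sham replicate 1, and 12 and 0 without PH replicate 1.

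Of the targets of p53, Cdkn1a among them, 14 of 25 measured members rose and 1 fell (median 0.50, and 0.28 against 0 h). The counts were lower with a sham array left out: 9 rose and 1 fell without sham replicate 1, and 7 and 1 without sham replicate 2. Btg2, an antiproliferative gene, read 11.35, 10.05 and 10.52 in the PH livers, against 8.84 and 8.83 in the sham livers (1.81 ± 0.59, adjusted p = 0.0333). Plk3 (1.61 ± 0.33), Trp53inp1 (1.31 ± 0.32), Aen (1.09 ± 0.29) and Plk2 (0.96 ± 0.23) rose, of which Aen is a nuclease of apoptosis. Against 0 h the same PH arrays stood at -0.14 ± 0.29 for Plk3 and -0.28 ± 0.29 for Trp53inp1. With 1 array left out, the call was lost by Aen (1.02 to 1.15) without sham replicate 1 or 2; Btg2 (1.45 to 2.10) without sham replicate 1 or 2 or PH replicate 1 or 3; Trp53inp1 (1.11 to 1.49) without sham replicate 2.

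Among glutathione and antioxidant genes, 12 of 34 measured members rose and 0 fell (median 0.43). Nqo1, a quinone reductase and target of NRF2, read 9.94, 9.20 and 8.82 in the PH livers, against 7.40 and 7.12 in the sham livers (2.06 ± 0.33, adjusted p = 1.06e-04). The glutathione transferases Gstm3 (2.12 ± 0.56) and Gstm2 (1.42 ± 0.49), whose family holds near-identical copies, rose, as did Gss, glutathione synthetase (1.31 ± 0.11), Hmox1, heme oxygenase (1.54 ± 0.51), and Txnrd1, thioredoxin reductase (0.85 ± 0.13). Nfe2l2, the gene of NRF2, read 12.02, 11.65 and 11.54 in the PH livers, against 10.88 and 10.71 in the sham livers and did not pass (0.94 ± 0.34, adjusted p = 0.0545). Of the integrated stress and unfolded protein response list, 3 of 32 measured members rose and 2 fell (9.38% and 6.25%, against 11.1% and 7.3% of all genes, median -0.01). Atf3, a stress factor, rose by 1.69 ± 0.51 and the serine synthesis gene Psph by 1.66 ± 0.21, while Chac1, which degrades glutathione, fell (-0.78 ± 0.23). In the antioxidant list 4 rose and 0 fell without sham replicate 1 or 2, and 6 and 0 without PH replicate 1. In the stress list 2 rose and 0 fell without sham replicate 1, and 2 and 1 without sham replicate 2 or PH replicate 3, and 1 and 1 without PH replicate 1. Single calls lost were Atf3 (1.38 to 1.99) and Chac1 (-0.90 to -0.66) without sham replicate 1 or 2 or PH replicate 1; Gstm2 (1.28 to 1.62) and Hmox1 (1.35 to 1.68) without sham replicate 1 or 2 or PH replicate 1 or 2; Gstm3 (1.93 to 2.31) without sham replicate 1 or 2.

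The largest falls were those of Upp2, Arrdc3 and Mup10. Of the 111 genes that fell by at least 2-fold, 18 are in any of the 37 pathway lists. Upp2, a uridine phosphorylase of liver, read 6.39, 8.32 and 6.94 in the PH livers, against 11.64 and 10.73 in the sham livers (-3.97 ± 0.76, 15.6-fold lower, adjusted p = 6.28e-04). Arrdc3, an arrestin-like adaptor, read 8.30, 8.87 and 8.17 in the PH livers, against 11.95 and 11.02 in the sham livers (-3.04 ± 0.43, adjusted p = 2.13e-05). Mup10, a major urinary protein made in male liver, read 8.61, 10.05 and 10.16 in the PH livers, against 12.61 and 12.53 in the sham livers (-2.97 ± 0.57, adjusted p = 6.63e-04). PH replicate 1 was the lowest array for Upp2 and Mup10 and PH replicate 3 for Arrdc3, and genes with overlapping arrays could not enter the 12 largest falls.

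In bile acid synthesis, Cyp8b1, the hydroxylase that directs synthesis to cholic acid, read 8.20, 10.46 and 10.45 in the PH livers, against 12.57 and 12.62 in the sham livers, with PH replicate 1 far under the other PH arrays (-2.89 ± 0.68, adjusted p = 0.00411). Sult2a8, a sulfotransferase, read 8.69, 11.82 and 11.43 in the PH livers, against 13.48 and 13.56 in the sham livers with the same array lowest (-2.87 ± 0.89, adjusted p = 0.026). Cyp7a1, the rate-limiting enzyme of bile acid synthesis, read 8.24, 10.87 and 9.51 in the PH livers, against 9.84 and 11.13 in the sham livers, and its groups overlapped (-0.95 ± 0.72, adjusted p = 0.385). The rest of the 12 largest falls were Sucnr1 (-2.40 ± 0.73), Ces1e (-2.38 ± 0.33), Nat8f1 (-2.26 ± 0.37), Csad (-2.07 ± 0.48), Dhdh (-2.07 ± 0.48) and Cyp2d13 (-2.04 ± 0.42) and the clock gene Dbp. Sucnr1 is the succinate receptor, Ces1e a carboxylesterase, Csad the enzyme that commits cysteine sulfinate to taurine, and Cyp2d13 a cytochrome P450. Mup, Sult2a, Ces1 and Cyp2d genes come in near-identical copies, so that a probe set may read several of them. The calls of Csad (-2.32 to -1.83) and Dhdh (-2.27 to -1.78) were lost without sham replicate 1. Sult2a8 (-3.46 to -1.90) and Dbp (-2.95 to -2.29) lost the call without sham replicate 1 or 2 or PH replicate 1. Sucnr1 (-2.75 to -2.04) lost it without sham replicate 1 or 2 or PH replicate 1 or 3.

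The most abundant products of hepatocytes gave no call on their brightest probe sets, but Apob fell on its dimmer set, as given with the processing below. Of 11 hepatocyte markers 0 passed, and their mean level was 13.68, 13.66 and 13.65 in the PH livers, against 13.74 and 13.74 in the sham livers. Alb, serum albumin, read 14.91, 14.90 and 14.88 in the PH livers, against 14.92 and 14.93 in the sham livers (-0.03 ± 0.05), near the top of the array's range, where signals compress. Apoa1 (-0.03 ± 0.06), Ttr (-0.08 ± 0.06), Fgb (-0.07 ± 0.08), Cps1 (-0.06 ± 0.28), Apob (0.05 ± 0.15), Ahsg (0.09 ± 0.09), Apoa2 (-0.11 ± 0.05), Serpina1c (-0.09 ± 0.06), Tat (-0.21 ± 0.14) and Ass1 (-0.25 ± 0.17) likewise did not pass. The probe set used for Ass1, an enzyme abundant in liver, was dim, with 6.09, 5.80 and 6.19 in the PH livers, against 6.21 and 6.34 in the sham livers.

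A part of the genes for plasma proteases and complement fell. In the coagulation and complement list 0 of 38 measured members rose and 13 fell (median -0.37), a share of 34.2% that fell, against 7.3% of all genes. F7, coagulation factor VII, read 11.08, 11.46 and 11.19 in the PH livers, against 12.06 and 12.09 in the sham livers (-0.83 ± 0.28, adjusted p = 0.0378). The complement genes C2 (-0.68 ± 0.11), Masp1 (-0.72 ± 0.23), C1ra (-0.55 ± 0.18) and C8g (-0.54 ± 0.10) and Serping1, the C1 inhibitor (-0.57 ± 0.12), fell. In this list 0 rose and 6 fell without sham replicate 1, and 0 and 8 without sham replicate 2 or PH replicate 1. Calls lost were F7 (-0.94 to -0.75), Masp1 (-0.89 to -0.62) and C1ra (-0.69 to -0.40) without sham replicate 1 or 2 or PH replicate 1 or 3.

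In the list of urea cycle and amino acid catabolism genes, 1 of 40 measured members rose and 10 fell (median -0.32). The shares were 2.5% and 25%, against 11.1% and 7.3% of all genes. The count of falls depended on single arrays: 0 rose and 2 fell without sham replicate 1, and 0 and 5 without sham replicate 2, and 1 and 6 without PH replicate 1 or 3. Hal, histidine ammonia-lyase, read 10.27, 11.18 and 10.86 in the PH livers, against 12.37 and 12.07 in the sham livers (-1.45 ± 0.36, adjusted p = 0.00629). Tdo2, which opens the tryptophan ring, read 12.72, 13.20 and 12.75 in the PH livers, against 13.90 and 13.74 in the sham livers (-0.93 ± 0.16), and Agxt (-1.03 ± 0.25), Cdo1 (-0.97 ± 0.11) and Prodh2 (-0.91 ± 0.30) fell as well. Dropping an array ended the calls of Hal (-1.66 to -1.20), Agxt (-1.22 to -0.92) and Csad (-2.32 to -1.83) without sham replicate 1; Prodh2 (-1.07 to -0.69) without sham replicate 1 or 2 or PH replicate 1 or 3.

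For sugar metabolism the shares of calls are given beside those of all genes, of which 11.1% rose and 7.3% fell. For gluconeogenesis and glycogen 2 of 20 measured members rose and 2 fell (10% and 10%, median -0.42): Gyg, the glycogen primer glycogenin, rose by 1.16 ± 0.28 and Pck2 by 0.56 ± 0.19, while the glucose 6-phosphate transporter gene Slc37a4 (-0.83 ± 0.24) and Pgm1 (-0.45 ± 0.12) fell. In the glycolysis list 4 of 27 measured members rose and 5 fell (14.8% and 18.5%, median 0.03). The lactate transporter Slc16a1 (1.45 ± 0.17) and the glucose transporter Slc2a1 (1.10 ± 0.34), which is low in resting hepatocytes, rose. Pklr, liver pyruvate kinase, read 9.56, 9.70 and 9.84 in the PH livers, against 10.75 and 10.50 in the sham livers and fell (-0.92 ± 0.25, adjusted p = 0.0101), with Aldoc (-1.52 ± 0.32) and the pyruvate dehydrogenase kinases Pdk1 (-1.10 ± 0.18) and Pdk2 (-1.34 ± 0.32). For gluconeogenesis 1 rose and 0 fell without sham replicate 1, and 1 and 1 without sham replicate 2 or PH replicate 1. For glycolysis 2 rose and 2 fell without sham replicate 1. The call depended on an array in Pgm1 (-0.58 to -0.36), Pklr (-1.04 to -0.80) and Pdk2 (-1.51 to -1.18) without sham replicate 1; Slc37a4 (-0.94 to -0.69) and Slc2a1 (0.91 to 1.24) without sham replicate 1 or 2 or PH replicate 1; Pck2 (0.48 to 0.61) without sham replicate 1 or 2 or PH replicate 1 or 3.

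The lipid lists likewise had shares near 11.1% and 7.3%, apart from the falls among lipoprotein genes. In the list of fatty acid oxidation and ketogenesis, 3 of 32 measured members rose and 2 fell (9.38% and 6.25%, median 0.03). Acot1, a thioesterase and target of PPAR alpha, read 10.69, 11.23 and 11.46 in the PH livers, against 7.63 and 8.31 in the sham livers (3.16 ± 0.38, 8.94-fold, adjusted p = 3.18e-06), and its close relatives Acot2 (1.41 ± 0.33) and Acot4 (0.78 ± 0.15) rose. Ppara, the receptor gene itself, fell (-1.04 ± 0.32, adjusted p = 0.0269), and so did the peroxisomal thiolase Acaa1b (-1.09 ± 0.22). Of lipid droplet and uptake genes 4 of 29 measured members rose and 2 fell (13.8% and 6.9%, median 0.04): Lpl, lipoprotein lipase, rose by 1.62 ± 0.47 and Dgat2, which makes triglyceride, fell (-0.86 ± 0.15). Of lipoprotein genes 3 of 23 measured members rose and 6 fell (13% and 26.1%, median -0.14). Of lipoprotein genes 2 rose and 3 fell without sham replicate 1, and of lipid droplet genes 2 rose and 1 fell without sham replicate 1. Apoa4 read 13.91, 13.69 and 13.88 in the PH livers, against 12.06 and 12.61 in the sham livers and rose (1.49 ± 0.22, adjusted p = 4.12e-05), as did Apoc2 (1.03 ± 0.16) and the lipase inhibitor Angptl4 (1.38 ± 0.45), while Abcg8, of the sterol exporter, fell (-1.36 ± 0.24). Not kept with every array left out were the calls of Lpl (1.22 to 1.82) without sham replicate 1 or 2 or PH replicate 1; Ppara (-1.25 to -0.88) without sham replicate 1 or 2 or PH replicate 1 or 3; Angptl4 (1.19 to 1.56) without sham replicate 1 or 2 or PH replicate 2 or 3.

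Genes that differ between the sexes in mouse liver were examined because all animals were male. In the male-biased list 0 of 20 measured members rose and 4 fell (median -0.60), a share of 20% that fell, against 7.3% of all genes. Beside Mup10, Cyp2u1 (-1.13 ± 0.19), Cyp4a12a (-1.0 ± 0.24) and Cyp2d9 (-0.71 ± 0.13) fell. In the female-biased list 5 of 26 measured members rose and 2 fell (19.2% and 7.69%, against 11.1% and 7.3% of all genes, median 0.02). Those that rose were Prom1 (1.96 ± 0.47), Trim24 (1.52 ± 0.32), Cyp39a1 (1.00 ± 0.30), Acot4 (0.78 ± 0.15) and Cyp3a44 (0.51 ± 0.15). Hamp2, a hepcidin copy, fell (-0.98 ± 0.32). Bcl6, a repressor of female-biased genes in male liver, read 8.06, 8.77 and 8.34 in the PH livers, against 8.21 and 9.56 in the sham livers and did not pass (-0.50 ± 0.29, adjusted p = 0.243). In the female-biased list 2 rose and 0 fell without sham replicate 1, and 3 and 0 without sham replicate 2, and 4 and 0 without PH replicate 1 or 3. Calls lost with an array left out were Prom1 (1.14 to 2.65) without sham replicate 1; Cyp39a1 (0.72 to 1.14) without sham replicate 1 or 2 or PH replicate 1; Hamp2 (-1.05 to -0.90) without sham replicate 1 or 2 or PH replicate 1 or 3; Cyp3a44 (0.39 to 0.58) without sham replicate 1 or 2 or PH replicate 3; Cyp4a12a (-1.17 to -0.68) without sham replicate 2.

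Of the listed hepatocyte transcription factors, 4 of 33 measured members rose and 4 fell (12.1% and 12.1%, against 11.1% and 7.3% of all genes, median -0.15). The count depended on single arrays: 1 rose and 3 fell without sham replicate 1, and 2 and 1 without sham replicate 2 or PH replicate 1. Cebpa, a factor of mature hepatocytes that restrains division, read 11.56, 12.06 and 11.57 in the PH livers, against 13.08 and 13.01 in the sham livers (-1.31 ± 0.19, 2.48-fold lower, adjusted p = 2.44e-05). Its relatives Cebpd (1.34 ± 0.32) and Cebpb (0.60 ± 0.14), which respond to injury, rose against sham. Neither passed against 0 h livers (0.16 ± 0.29 for Cebpd and -0.13 ± 0.12 for Cebpb). The nuclear receptors Nr1h4, the bile acid receptor FXR (-0.71 ± 0.19), Rxra, its partner (-0.53 ± 0.17), and Ppara fell, and Foxa3 rose (0.96 ± 0.29). Atf3, the stress factor given above, is also in this list and rose. Hnf4a, the central factor of the hepatocyte, read 12.97, 13.07 and 12.91 in the PH livers, against 12.96 and 12.95 in the sham livers, a difference of 0.03 ± 0.09 (adjusted p = 0.877).

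The rest of that list did not pass. Tbx3 (-1.31 ± 0.50) and Onecut2 (-0.98 ± 0.49) had differences near that of Cebpa with larger errors. Between these and 0 lay Onecut1 (-0.60), Klf15 (-0.59), Nr0b2 (-0.54), Nr5a2 (-0.45), Nr3c1 (-0.44), Prox1 (-0.43), Nr1i3 (-0.42), Zhx2 (-0.17), Foxa2 (-0.17), Esr1 (-0.15), Creb3l3 (-0.07), Sox9 (-0.05), Sox4 (-0.04), Nr1i2 (-0.03) and Nr1h3 (0.00). Above 0 were Xbp1 (0.09), Zbtb20 (0.09), Klf6 (0.28) and Foxa1 (0.36). These are values of the brightest probe sets, and on dimmer sets Klf6 rose and Zbtb20 fell. With 1 array left out, the call was lost by Rxra (-0.73 to -0.35) and Ppara (-1.25 to -0.88) without sham replicate 1 or 2 or PH replicate 1 or 3; Cebpb (0.55 to 0.65) without sham replicate 1; Foxa3 (0.71 to 1.20) without sham replicate 1 or PH replicate 1 or 2; Cebpd (1.19 to 1.45) without sham replicate 2; Nr1h4 (-0.90 to -0.45) without sham replicate 2 or PH replicate 1.

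Among clock genes, the PAR factors and REV-ERBs fell. In the circadian list 2 of 22 measured members rose and 5 fell (9.09% and 22.7%, against 11.1% and 7.3% of all genes, median -0.27). Of these genes 1 rose and 2 fell without sham replicate 1, and 1 and 3 without sham replicate 2, and 2 and 2 without PH replicate 1. Dbp, an output factor of the clock, read 6.90, 7.47 and 7.13 in the PH livers, against 10.12 and 9.45 in the sham livers (-2.62 ± 0.78, adjusted p = 0.0208), and its relatives Tef (-0.89 ± 0.30) and Hlf (-0.65 ± 0.14) fell. Nr1d1, encoding the repressor REV-ERB alpha, read 8.15, 8.78 and 8.18 in the PH livers, against 9.98 and 10.26 in the sham livers (-1.75 ± 0.31, adjusted p = 2.47e-04), and Nr1d2 was at -1.23 ± 0.36. Clock, the activator, read 9.41, 9.31 and 9.31 in the PH livers, against 8.35 and 8.62 in the sham livers and rose (0.86 ± 0.22, adjusted p = 0.00798), with Rora (0.65 ± 0.18).

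The other 15 clock genes did not pass. The activators Arntl (0.53 ± 0.40) and Npas2 (1.04 ± 0.50) and the repressors Per1 (0.84 ± 0.35) and Cry1 (0.63 ± 0.36) were above sham, and Per2 (-0.37 ± 0.16), Per3 (-0.65 ± 0.25), Cry2 (-0.69 ± 0.32), Ciart (-0.39 ± 0.23), Bhlhe40 (-0.59 ± 0.41) and Bhlhe41 (-0.17 ± 0.13) below. Nfil3 (-0.14 ± 0.39), Usp2 (0.39 ± 0.37), Tspan4 (0.50 ± 0.25), Lpin1 (-0.41 ± 0.36) and Wee1, described above, complete the list. At 24 h Dbp did not pass (-0.93 ± 0.78), and the difference between the times did not pass either (-1.69 ± 1.10, adjusted p = 0.673). The labels give no hour of day. The call of Clock (0.72 to 1.00) was lost without sham replicate 1, and that of Rora (0.51 to 0.79) without sham replicate 2. Nr1d2 (-1.43 to -1.04) lost its call without sham replicate 1 or PH replicate 1. Dbp (-2.95 to -2.29) lost it without sham replicate 1 or 2 or PH replicate 1. Tef (-1.07 to -0.74) lost it without sham replicate 1 or 2 or PH replicate 1 or 3.

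Of growth factors and their receptors, 7 of 43 measured members rose and 3 fell (16.3% and 6.98%, against 11.1% and 7.3% of all genes; median -0.06). Of these 1 rose and 2 fell without sham replicate 1, and 2 and 3 without sham replicate 2, and 1 and 3 without PH replicate 1. Tnfrsf12a, the receptor of the cytokine TWEAK, read 12.95, 11.63 and 12.14 in the PH livers, against 9.61 and 9.50 in the sham livers (2.68 ± 0.56, adjusted p = 0.00155). The ligands Pdgfa (1.32 ± 0.35), Tgfa (0.85 ± 0.23) and Hgf (0.56 ± 0.17) rose, Tgfa being a ligand of the EGF receptor and Hgf the ligand of Met. The receptors Met (-0.26 ± 0.13) and Egfr (-0.55 ± 0.77) did not pass, while Erbb3 (-0.88 ± 0.20), Vegfa (-0.93 ± 0.20) and Hgfac, the activator of Hgf (-1.19 ± 0.13), fell. Dropping an array ended the calls of Pdgfa (1.02 to 1.48), Tgfa (0.63 to 0.97) and Hgf (0.43 to 0.63) without sham replicate 1 or 2 or PH replicate 1; Erbb3 (-1.07 to -0.69) without sham replicate 1.

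In the growth hormone and insulin-like growth factor axis 1 of 25 measured members rose and 3 fell (4% and 12%, against 11.1% and 7.3% of all genes). Igfbp1, a binding protein that fasting and injury induce, read 13.06, 11.58 and 12.44 in the PH livers, against 9.51 and 9.90 in the sham livers (2.66 ± 0.71, adjusted p = 0.0107), and the insulin receptor Insr (-0.88 ± 0.18), Stat5b (-0.50 ± 0.12) and Igf1r (-0.29 ± 0.09) fell. Igf1 (0.14 ± 0.08) and the cytokine inhibitors Socs2 (0.82 ± 0.61) and Socs3 (-0.34 ± 0.64) did not pass. In the TGF-beta and activin list 3 of 35 measured members rose and 1 fell (8.57% and 2.86%, against the same shares of all genes). The rises were Fstl1 (1.15 ± 0.36), Gdf2 (0.62 ± 0.13) and Bambi (0.43 ± 0.13), and the fall was that of the receptor Acvr2b (-0.55 ± 0.11). Tgfb1 (0.61 ± 0.29), the activin antagonist Fst (1.01 ± 0.61) and the activin subunit Inhbe (-1.11 ± 0.44) did not pass. In the growth hormone list 0 rose and 1 fell without sham replicate 1, and 0 and 2 without PH replicate 1. In the TGF-beta list 1 rose and 1 fell without sham replicate 2 or PH replicate 1. The call depended on an array in Stat5b (-0.58 to -0.42) without sham replicate 1; Igfbp1 (2.31 to 3.04) without sham replicate 1 or PH replicate 1; Igf1r (-0.33 to -0.25) without sham replicate 1 or 2 or PH replicate 1; Bambi (0.24 to 0.61) without sham replicate 2 or PH replicate 1; Fstl1 (0.66 to 1.64) without sham replicate 2 or PH replicate 1 or 3.

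Among all genes 11.1% rose and 7.3% fell. The shares were 9.09% and 9.09% for Hippo and YAP and 3.45% and 10.3% for Wnt and beta-catenin. They were 18.2% and 4.55% for fetal liver and oncofetal genes and 6.9% and 10.3% for heme and iron genes. For Hippo and YAP 2 of 22 measured members rose and 2 fell: Ajuba, an inhibitor of the LATS kinases, rose by 1.44 ± 0.42 and Wwtr1, encoding TAZ, by 0.64 ± 0.21, while Nf2 (-0.35 ± 0.10) and Vgll4 (-0.35 ± 0.12) fell. The YAP target Ccn2 was at 0.81 ± 0.51 and did not pass. For Wnt and beta-catenin 1 of 29 measured members rose and 3 fell: Ctnnb1 rose by 0.38 ± 0.11, the receptors Fzd8 (-1.14 ± 0.15), Lgr4 (-0.56 ± 0.12) and Fzd4 (-0.49 ± 0.12) fell, and the targets Axin2 (-0.04 ± 0.21) and Lgr5 (-0.17 ± 0.25) did not pass. Of fetal liver and oncofetal genes 4 of 22 measured members rose and 1 fell: Afp, alpha-fetoprotein, read 7.85, 7.41 and 7.54 in the PH livers, against 6.60 and 6.58 in the sham livers (1.01 ± 0.23, adjusted p = 0.0028), Spink1 (0.53 ± 0.17), Bex1 (0.52 ± 0.13) and Prom1 (1.96 ± 0.47) rose and Peg3 (-0.59 ± 0.19) fell. Of heme and iron genes 2 of 29 measured members rose and 3 fell: Id1, a target of BMP signalling, rose by 1.88 ± 0.60, the transferrin receptor Tfrc by 1.17 ± 0.26, and Tfr2 (-0.59 ± 0.18), Tmprss6 (-0.60 ± 0.17) and Hamp2 (-0.98 ± 0.32) fell, while hepcidin itself, Hamp, was at -0.34 ± 0.18. Of Hippo genes 0 rose and 0 fell without sham replicate 1 or PH replicate 1, and 1 and 0 without sham replicate 2 or PH replicate 3. Of Wnt genes 0 rose and 1 fell without sham replicate 1. Of fetal genes 2 rose and 0 fell without sham replicate 1 or 2, and 3 and 0 without PH replicate 1. Of heme and iron genes 1 rose and 0 fell without sham replicate 1 or 2 or PH replicate 1. Not kept with every array left out were the calls of Ctnnb1 (0.28 to 0.45), Spink1 (0.33 to 0.70), Id1 (1.33 to 2.22), Tfr2 (-0.66 to -0.48) and Tmprss6 (-0.69 to -0.50) without sham replicate 1 or 2 or PH replicate 1; Wwtr1 (0.52 to 0.76), Nf2 (-0.45 to -0.30), Vgll4 (-0.41 to -0.29) and Hamp2 (-1.05 to -0.90) without sham replicate 1 or 2 or PH replicate 1 or 3; Lgr4 (-0.64 to -0.48), Fzd4 (-0.55 to -0.40) and Prom1 (1.14 to 2.65) without sham replicate 1; Ajuba (1.19 to 1.69) without sham replicate 1 or PH replicate 1; Peg3 (-0.62 to -0.54) without sham replicate 1 or 2 or PH replicate 1, 2 or 3; Bex1 (0.45 to 0.61) without sham replicate 2.

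What a difference from sham means depends on where the sham livers stood relative to untreated ones, and both comparisons use the same PH arrays. Of the 3340 genes called against sham, 1870 also passed against 0 h in the same direction (1210 higher, 660 lower) and 35 in the opposite direction. Against 0 h 5073 genes passed (27.9%). Igfbp1 read 11.93, 14.15 and 11.52 in the 0 h livers, overlapping the PH livers, and the difference was -0.17 ± 0.64 (adjusted p = 0.879). Cebpb, Clock, Rora, Plk3 and Trp53inp1 stood likewise at -0.13 ± 0.12, -0.19 ± 0.20, -0.06 ± 0.16, -0.14 ± 0.29 and -0.28 ± 0.29 against 0 h, with none passing. Cebpd, at 0.16 ± 0.29 against 0 h, did not pass either. For these genes the sham arrays lay under the other arrays.

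Other genes passed against 0 h and not against sham. Hnf4a read 13.49, 13.18 and 13.39 in the 0 h livers and was lower in PH livers than in these (-0.37 ± 0.08, adjusted p = 0.00123). Foxa1 (-1.18 ± 0.27) and Socs2 (-1.97 ± 0.54) were lower still against 0 h. The acute phase gene Saa2 read 14.21, 14.45 and 14.51 in the PH livers, against 14.03 and 14.19 in the sham livers, and 9.96, 11.61 and 9.52 in the 0 h livers, so that it differed by 4.03 ± 0.51 from 0 h (adjusted p = 2.25e-06) and by 0.28 ± 0.57 from sham. Saa1 had 2.48 ± 0.36 against 0 h and 0.06 ± 0.40 against sham.

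**Figure D4:**
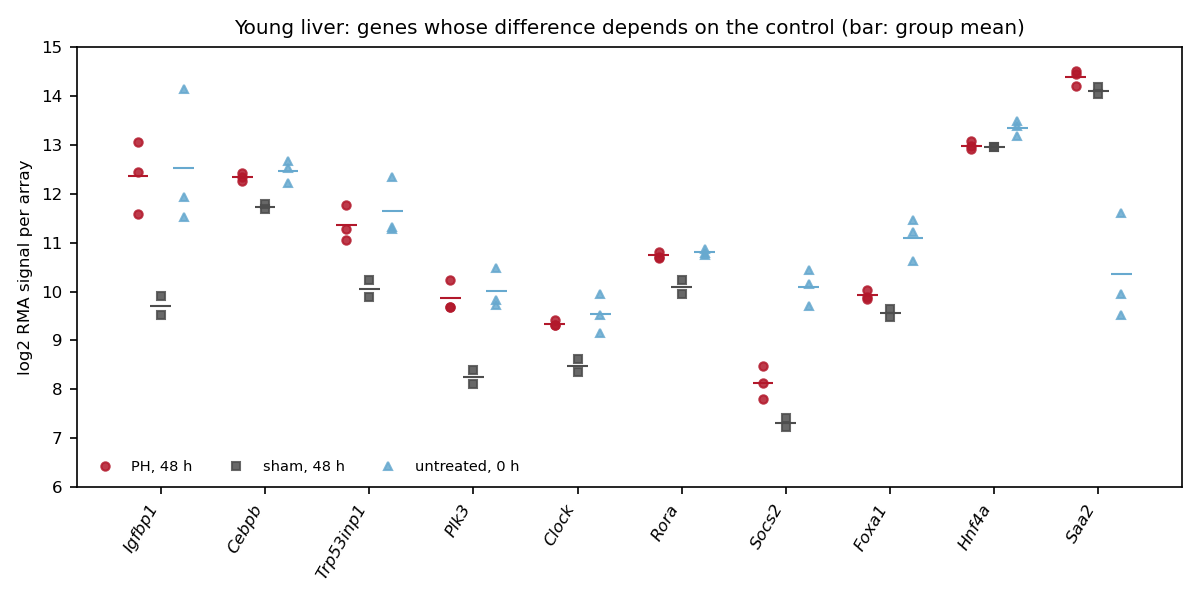
Log2 RMA signal of each young array for 10 genes whose difference depends on the control, chosen after their values were seen, with PH livers at 48 h as circles, sham livers at 48 h as squares, untreated livers at 0 h as triangles and a bar at each group mean. Igfbp1 to Rora read low in sham livers only, Socs2, Foxa1 and Hnf4a read highest at 0 h, and Saa2 lies above 14 after either surgery and under 12 at 0 h.

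Few markers of other liver and nearby cells passed. Over 11 marker lists with 123 genes, 2 rose (1.63%) and 6 fell (4.88%), against 11.1% and 7.3% of all genes. Stellate cell and fibroblast markers had a mean level of 9.38, 9.0 and 9.53 in the PH livers, against 9.20 and 8.75 in the sham livers, with overlap, and Lum, a matrix proteoglycan, was the member that rose (1.16 ± 0.36). Bile duct markers read 7.74, 7.40 and 7.46 in the PH livers, against 7.17 and 7.19 in the sham livers on average, with no overlap, and Prom1 rose (1.96 ± 0.47), whereas the defining duct genes Krt19 (0.41 ± 0.28) and Sox9 (-0.05 ± 0.29) did not pass. Kupffer and macrophage markers read 9.20, 8.78 and 8.97 in the PH livers, against 8.78 and 8.66 in the sham livers with 0 of 15 passing, neutrophil markers 7.77, 7.87 and 7.93 in the PH livers, against 7.88 and 7.85 in the sham livers with 0 of 11, and sinusoidal endothelial markers 9.04, 9.06 and 9.09 in the PH livers, against 8.98 and 9.20 in the sham livers with the fall of Cldn5 (-0.46 ± 0.13).

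Lymphocyte markers read 6.85, 6.84 and 6.88 in the PH livers, against 7.0 and 7.01 in the sham livers, and Cd3e fell (-0.27 ± 0.09). Erythroid markers read 7.64, 7.79 and 7.75 in the PH livers, against 8.05 and 7.97 in the sham livers, with falls of Alas2, the erythroid enzyme of heme synthesis (-0.98 ± 0.26), and Klf1 (-0.47 ± 0.13). Among adipose markers Car3, which hepatocytes also express, and Lipe fell (-1.12 ± 0.36 and -0.44 ± 0.13), and pancreas, mesothelial and muscle lists had 0 calls. In whole liver, fewer cells of a type and less RNA per cell cannot be told apart, and the part of these markers in the other results was not tested. Calls lost with an array left out were Alas2 (-1.15 to -0.77) and Car3 (-1.41 to -0.57) without sham replicate 1 or 2 or PH replicate 1; Lum (1.04 to 1.24) and Lipe (-0.51 to -0.39) without sham replicate 1 or 2 or PH replicate 1 or 3; Prom1 (1.14 to 2.65) without sham replicate 1; Klf1 (-0.70 to -0.24) without sham replicate 1 or PH replicate 1; Cldn5 (-0.59 to -0.32) without sham replicate 2 or PH replicate 1; Cd3e (-0.38 to -0.15) without sham replicate 2 or PH replicate 1 or 3.

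In old livers at 48 h the comparison uses other arrays. There 2733 genes passed (15%), 1539 that rose (8.46%) and 1194 that fell (6.56%). The difference between the young and the old response passed in 0 of 18193 genes by limma, with 378 (2.08%) at an unadjusted p under 0.05. Birc5 responded by 5.35 ± 0.73 in young and 5.49 ± 0.73 in old livers (difference -0.14 ± 1.03), Ccnb2 by 4.39 ± 0.51 and 4.14 ± 0.51 (0.25 ± 0.72), and Cebpa by -1.31 ± 0.19 and -1.33 ± 0.19 (0.02 ± 0.26). Igfbp1 was at 2.66 ± 0.71 in young and 3.90 ± 0.71 in old livers (-1.25 ± 1.01). The median SE of these differences of responses was 0.19, and a p that misses the threshold does not show that the ages respond alike. The lowest adjusted p was 0.08, that of Zfp438, a zinc finger gene chosen after its value was seen, at -0.23 ± 0.09 in young and 0.49 ± 0.09 in old livers.

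Each gene is represented by its brightest probe set, and the others did not always say the same. Of 9010 genes with over 1 probe set, 2979 had at least 1 called, 374 had all called in 1 direction and 131 had calls in both. For 1094 genes the chosen set did not pass while another did. Tpx2, a spindle assembly factor, was at -0.22 ± 0.16 on its brightest set, and at 3.00 ± 0.25 and 2.53 ± 0.29 on dimmer sets. Foxm1, the mitotic activator, was at 0.35 ± 0.14 on its brightest set and at 1.96 ± 0.30 and 0.59 ± 0.16 on others. The remodeller Hells was at 0.45 ± 0.16 and 3.44 ± 0.50, and Cenpk of the inner kinetochore at -0.07 ± 0.10 and 2.60 ± 0.33. The counts of the cell cycle lists above therefore hold for the brightest sets.

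**Figure D5:**
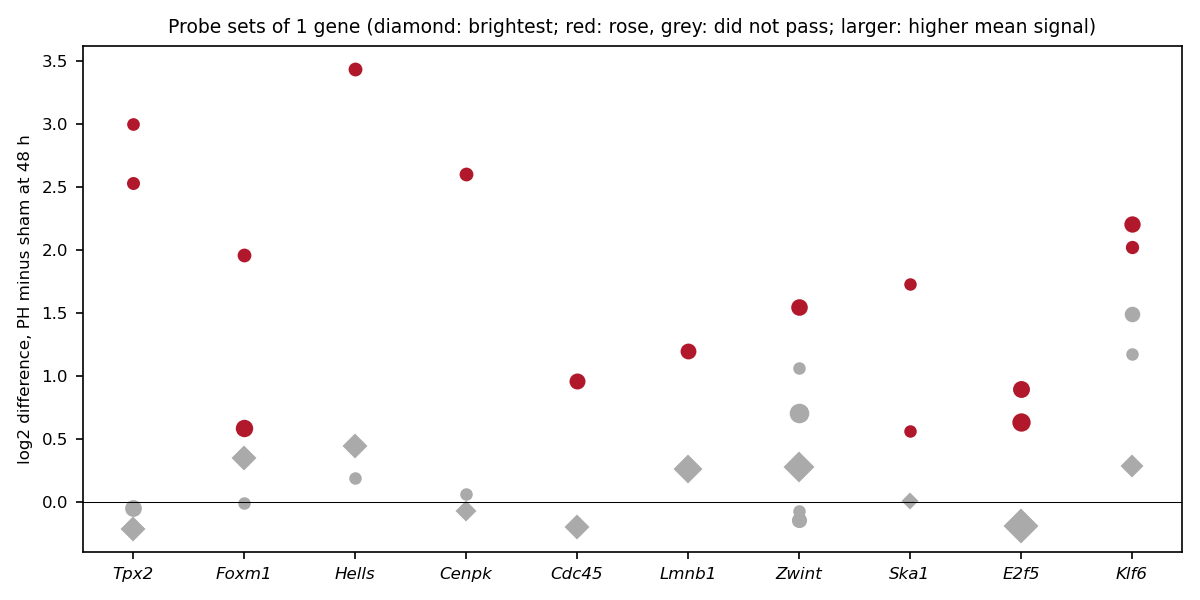
Log2 difference between PH and sham livers at 48 h for every probe set of 10 genes, chosen after their values were seen, with the brightest set as a diamond, larger symbols for a higher mean signal, red for sets that rose and grey for sets that did not pass. In each gene the diamond did not pass and at least 1 dimmer set rose, as in Hells with 0.45 on the brightest and 3.44 on a dimmer set.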

How the data were processed

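RNA of mouse livers, isolated with RNeasy columns, was labelled from 5 ug of total RNA and hybridised to 35 Affymetrix moe430_2 arrays, per the labels. The deposited values are log2 signals that the authors made with RMA, per the submitters' processing notes. Which RMA version was used, and over which arrays, is not given in the sources used here. The precision is limited by the number of arrays.

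Of 45101 probe sets, 64 are controls, 34945 had 1 gene symbol in the platform table, 932 had several and 9160 were not listed. Each of 18193 genes was represented by the brightest of its probe sets, by the mean of all arrays. Group means of all 35 arrays were fitted with limma 3.58.1 in R 4.3.3 with eBayes moderation, on 21 residual and 3.29 prior degrees of freedom. P-values were adjusted by Benjamini-Hochberg over all genes, at a threshold of 0.05. The scripts were tested on simulated data. Other fits changed the probe set, filter, scaling, variance prior, array weights, arrays, control and replicate block, and left out each array in turn.

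The members, the 37 pathway lists, the 12 marker lists and the rules were chosen with earlier results of these data known. Named genes are a panel, the 12 largest rises and falls with arrays that do not overlap, up to 6 members per list, all members of the tubulin, cyclin, circadian, cell cycle transcription, hepatocyte factor and hepatocyte marker lists, and up to 6 genes each way per difference of responses. Egr1, Jun, Fos, Zfp438, Hells, Cenpk and Tpx2 were chosen after their values were seen. Promoters are from RefSeq (GRCm38.p6), matched by gene. Figures used matplotlib 3.10.9.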

Additional observations from a re-analysis of the deposited data

Results flagged for a closer look

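In 39 named genes the response to PH in young livers differed between 48 h and 24 h by the test of the difference itself (adjusted p under 0.05 by limma), and the values below are 48 h response minus 24 h response on the log2 scale. Cytokinesis genes stood higher at 48 h, with Anln (2.98), Cep55 (3.50), Ect2 (3.02), Kif20a (3.69), Kif20b (2.50) and Prc1 (2.16). In the kinetochore list these were Cenpa (3.44), Cenpf (2.96), Cenpw (2.69) and Nuf2 (3.64), and in the checkpoint list Bub1 (2.95), Cdc20 (3.60), Mad2l1 (2.46), Ttk (2.70) and Ube2s (1.75). Among mitotic kinases and their partners they were Aurka (3.03), Cdca8 (2.85) and Plk1 (3.11), and among cyclins and inhibitors Ccna2 (2.41), Ccnb2 (3.90) and Cdkn3 (3.67). Centrosome genes gave Aspm (2.02), Ckap2 (2.66) and Haus1 (1.35), and the tubulin list gave Tubb4b (1.63). Also higher were Cdca3 (3.77), Dbf4 (2.89), Eme1 (1.30), Gss (0.95), Kpna2 (1.73), Ndc1 (1.19) and Rangap1 (0.99). Lower at 48 h than at 24 h were 1810046K07Rik (-1.09), 3930402G23Rik (-0.85), Adcy9 (-1.01), Cdo1 (-0.83), Jmy (-1.09), Sbk1 (-2.15) and Tprkb (-0.92).

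Probe sets that the platform table does not list have no part in the results by gene. When all probe sets were tested together, 167 of the 9160 unlisted ones were higher in PH than in sham livers at 48 h and 637 were lower, 8.78% in all. Among probe sets with 1 gene, 3111 of 34945 were higher and 2440 lower (15.9%). Of the 932 with several genes, 144 were higher and 50 lower (20.8%). Outlying samples were not looked for, as every group here has under 4 arrays.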

How the results depend on the processing

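The 48 h response held 3340 calls in the fit described, and between 2595 and 4900 under other probe set rules, filters, scalings, priors and sets of arrays. It gave 5998 with array weights, whose estimate did not converge, 5073 against 0 h and 5478 against all young sham arrays; with arrays left out in turn the count ran from 1297 to 3274. The difference between 48 h and 24 h (127 calls) gave 72 above the median level, 880 with array weights, 418 with only the arrays compared and 363 with only young arrays, and from 26 to 231 with arrays left out. The difference between young and old (0 calls) gave 1 with the mean of all probe sets, with quantile normalization repeated, with a trended and robust prior and with only the arrays compared, 3 with array weights, and 0 to 1 with arrays left out. A lone array in a group is taken to vary as other groups do. With a replicate block the 48 h response gave 3407 calls, the time difference 118 and the age difference 0. Deviations from the group mean correlated at r = 0.057 and 0.0935 for PH and sham numbers 1 and 2. Over 184 same-numbered pairs across groups r ran from -0.757 to 0.447 (median -0.00184). In a group of 2 arrays the deviations mirror each other, so these values cannot decide whether the numbers pair samples. The cause of the shifts in the counts was not tested.

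Of 246 named genes that passed, 154 kept the call with each array left out and 92 lost it at least once, 80 of them without sham replicate 1. Other scalings turned the sign of 0 of the 246, and quantile normalization ended 13 calls. Against 0 h the sign turned for 11 of the 246, Angptl4 (-0.26), Cebpb (-0.13), Clock (-0.19), E2f3 (-0.023), E2f6 (-0.19), Igfbp1 (-0.17), Phgdh (0.039), Plk3 (-0.14), Rora (-0.059), Trp53inp1 (-0.28) and Wwtr1 (-0.015), and with the mean of a gene's probe sets for Phgdh (0.028). Among named genes that did not pass against sham, the sign turned with a call in the other fit for Foxa1 (-1.18), Hnf4a (-0.37), Rb1 (-0.60), Socs2 (-1.97) and Xbp1 (-0.39) against 0 h, for Apob (-0.65) and E2f5 (0.45) with the mean of probe sets, and with every probe set tested for Apob (-1.35), E2f5 (0.89), Tgfb1 (-0.39), Tube1 (0.65) and Zbtb20 (-0.94). Turned signs without a call in either fit are left out. The median of all genes was -0.05 in the values as deposited, -0.07 with arrays centred on their medians and -0.05 with quantile normalization repeated.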

Other observations

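Egr1, Jun and Fos, immediate early genes that injury and growth signals switch on within minutes to hours, were higher in PH livers at 48 h. They were chosen after their values were seen and do not stand for the class. Of that class Myc (0.67 ± 0.35) and Klf6 (0.28 ± 0.32) did not pass on their brightest probe sets. A dimmer probe set of Klf6 did rise. Egr1 read 11.97, 12.39 and 12.53 in the PH livers, against 8.68 and 8.12 in the sham livers (log2 difference 3.90 ± 0.72, adjusted p = 4.19e-04 by limma). Jun read 11.34, 10.61 and 10.76 in the PH livers, against 7.70 and 8.06 in the sham livers (3.02 ± 0.46, adjusted p = 5.29e-05), and Fos read 9.76, 9.99 and 9.94 in the PH livers, against 7.47 and 7.39 in the sham livers (2.46 ± 0.56, adjusted p = 0.00316). No PH array overlapped a sham array in the 3 genes, as in nearly all genes called. The untreated livers were spread, with Egr1 at 9.63, 11.31 and 9.72 in the 0 h livers and Fos at 7.87, 9.86 and 7.88 in the 0 h livers, and against 0 h the differences were 2.08 ± 0.64 for Egr1, 0.89 ± 0.41 for Jun and 1.36 ± 0.50 for Fos (adjusted p = 0.0172, 0.109 and 0.0445).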
